A study of Mus musculus with 6 samples.

Results

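The heat shock protein and DNAJ chaperone genes were taken as every symbol that starts with Hspa, Hspb, Hspd, Hspe, Hsph, Hsp90 or Dnaj in the count tables. This gave 63 of 12718 genes, 26 of them HSP genes and 37 DNAJ genes. They were sorted by the place and regulation of their products into 10 inducible cytosolic, 11 constitutive cytosolic, 8 mitochondrial and 12 endoplasmic reticulum (ER) genes, with 22 others. All 63 passed the low-count filter in every table. Hspbap1, Hspbp1 and Hspb11 came in through their prefix alone: Hspbap1 and Hspbp1 encode partners of other chaperones, and Hspb11 encodes an intraflagellar transport subunit.

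The series measured RPB1, the catalytic subunit of RNA polymerase II, on chromatin of whole adrenal glands, with an antibody against its N-terminal domain. That domain is present whatever the phosphorylation of the C-terminal tail. The 3 Armc5(-/-) mice and the 3 WT mice were females of a 129 sv X CD1 background, aged 10 to 14 months, and each library carried its own mouse number. Armc5 encodes a substrate adaptor of a CUL3 ubiquitin ligase that acts on RPB1. Reads were counted per gene in a transcription start site (TSS) window, the gene body and a transcription end site (TES) window. The knockout is labelled for the whole animal, so nothing in the labels limits it to one adrenal cell type, and the level of Armc5 itself was not analysed here.

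Chaperones of the HSP70 family bind and release unfolded protein in an ATP-driven cycle, which DNAJ co-chaperones start by delivering the client and stimulating ATP hydrolysis. Small heat shock proteins hold unfolding clients in solution without ATP, HSP90 acts late on signalling clients, and HSP60 with HSP10 folds proteins inside mitochondria. The transcription factor HSF1 drives the inducible cytosolic genes through heat shock elements in their promoters, and the unfolded protein response drives many of the ER genes. Heat shock genes are the classical example of genes with a polymerase paused just downstream of the start, and the steroid-producing cells of the adrenal cortex depend on chaperones of the cytosol, ER and mitochondria.

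The 6 libraries summed to between 17936275 and 28190157 counts in Armc5 knockout glands and between 14511177 and 26748906 in WT glands. The TSS table was uneven, because a single gene, Gm10800, took 2.67% to 11.7% of its counts in knockout libraries and 3.39% to 25.1% in WT libraries. Per member and library, counts ran from 7 to 1201 in the TSS window, from 13 to 6433 in the gene body and from 5 to 1218 in the TES window. The standard error (SE) of a member's log2 fold change had a median of 0.212 in the TSS window, 0.188 in the gene body and 0.252 in the TES window. Levels below are CPM, counts scaled to library size within each table by TMM. Differences are log2 fold changes of knockout over WT from edgeR's quasi-likelihood test, with p-values adjusted by Benjamini-Hochberg over the whole table. Called means an adjusted p under 0.05. The p-values measure the spread between these 6 animals only. All 8 cortex markers, such as Star and Cyp11a1, and all 6 medulla markers, such as Dbh and Chga, were measured in every library.

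The called differences all lay in the TES window. In it 4 of 63 members were called higher in Armc5 knockout glands and 0 were called lower by edgeR, where 0.915% of 12680 genes were called in either direction, 0.82% higher and 0.0946% lower. They were Hspa1a, Hspa1b, Hspa2 and Dnajb9. Hspa1a and Hspa1b are near-identical copies that may share reads, so they do not count as 2 independent calls. DESeq2 and limma-voom each called 4 members there too, where they called 0.852% and 0.923% of all genes. A further 9 members reached an unadjusted p under 0.05, which made 13 in all, 12 of them higher. Over all genes the shares were 6.85% in either direction and 4.37% higher. In the gene body 0 of 63 members were called by edgeR, DESeq2 or limma-voom, beside 0.252%, 1.41% and 0.267% of all genes. There 11 members, all of them higher, reached an unadjusted p under 0.05, beside 5.05% of all genes in either direction and 4.06% higher. Most such genes of the whole table were also higher, 516 of 642. At the TSS 0 of 63 were called by edgeR, DESeq2 or limma-voom, beside 0.339%, 0.749% and 0.284% of all genes. There 2 members reached an unadjusted p under 0.05, both higher, beside 5.57% of all genes in either direction and 3.62% higher. All 3 knockout libraries lay above all 3 WT libraries for 10 members in the gene body and 10 in the TES window, beside 6.51% and 6.69% of all genes, and for 2 members in the TSS window, beside 6.47%. All 3 lay below for 2 members in the gene body, 2 in the TES window and 0 in the TSS window, beside 3.87%, 4.83% and 4.93%; these and the TSS counts are near or below the background.

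Hspa1a and Hspa1b encode the stress-inducible HSP70 and are near-identical copies that lie 10120 bp apart on the minus strand of chromosome 17. Hspa1a occupies chr17:34969359-34972156 and Hspa1b chr17:34956429-34959238 in GRCm38.p6. Their upstream sequences are printed here because they are so alike: the 250 bases before the start differ at 3 positions. The gene bodies and TES windows of the 2 copies were not compared base by base, so how well short reads separate them there was not measured. The bases come from RefSeq (GRCm38.p6), run 5′ to 3′ on the gene's own strand and end just before the start. Capitals mark GAAGATTC, a heat shock element of 2 inverted units, 104 to 97 bases upstream, and ATTGG, the reverse of the CCAAT box, 67 to 63 bases upstream.
Hspa1a (chr17:34972157-34972406, minus strand): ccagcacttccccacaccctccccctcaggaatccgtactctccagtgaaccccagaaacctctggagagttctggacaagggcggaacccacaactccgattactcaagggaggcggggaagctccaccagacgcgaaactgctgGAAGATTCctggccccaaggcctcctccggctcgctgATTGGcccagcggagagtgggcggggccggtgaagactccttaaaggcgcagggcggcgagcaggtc
Hspa1b (chr17:34959239-34959488, minus strand): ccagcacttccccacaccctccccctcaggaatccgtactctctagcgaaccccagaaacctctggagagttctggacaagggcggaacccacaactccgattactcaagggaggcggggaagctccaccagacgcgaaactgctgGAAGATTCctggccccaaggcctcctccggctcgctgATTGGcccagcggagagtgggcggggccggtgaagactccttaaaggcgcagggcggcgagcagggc

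At its TES Hspa1a had 143, 120 and 182 CPM in knockout libraries 1 to 3, against 55.6, 35.3 and 12.7 CPM in WT libraries 1 to 3. The groups did not overlap, and the lowest knockout library lay far above the highest WT library. Its log2 fold change was 2.13 ± 0.30 (SE), a 4.39-fold difference, with an adjusted p of 1.11e-05. Hspa1b had 107, 86.8 and 114 CPM in knockout libraries, against 56.2, 50.0 and 23.6 CPM in WT libraries. These groups were also separate, and WT library 3 was the lowest for both copies. The log2 fold change of Hspa1b was 1.28 ± 0.25 (SE) and the adjusted p 0.00286. How the counting divided reads between the copies is not given in the sources used here. Each copy's own values are therefore uncertain, and their sum was tested as 1 gene. The sum was 251, 207 and 297 CPM in knockout libraries, against 112, 85.3 and 36.3 CPM in WT libraries. On the sum the TES window rose 3.26-fold, a log2 fold change of 1.71 ± 0.29 (SE) with an adjusted p of 0.000377, and the call held with each library left out in turn, at log2 fold changes of 1.34 to 2.09.

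Upstream of the end, the same pair differed less and was not called. In the gene body the summed pair had 49.0, 41.7 and 36.0 CPM in knockout libraries, against 26.6, 23.4 and 9.36 CPM in WT libraries. All 3 knockout libraries lay above all 3 WT libraries, but the log2 fold change of 1.10 ± 0.35 (SE) had an adjusted p of 0.609. With depth class as a covariate, which separates the 3 shallow libraries (knockout 1, WT 1 and WT 2) from the 3 deep ones, Hspa1a and Hspa1b were called in the gene body, at 1.69 (adjusted p = 0.0463) and 1.33 (adjusted p = 0.0492), where that fit called 0.747% of all genes. In the TSS window the sum was 344, 349 and 338 CPM in knockout libraries, against 266, 289 and 309 CPM in WT libraries. Here too all 3 knockout libraries lay above all 3 WT libraries. The log2 fold change of this sum was 0.26 ± 0.15 (SE) with an adjusted p of 0.951. The TSS window of the pair was thus 1.19-fold higher where the TES window was 3.26-fold higher. Hspa1a alone differed by 0.49 in the TSS window, 0.34 to 0.59 with a library left out, and was not called there. Hspa1a overlaps no gene, but Hspa1l, a testis-enriched HSP70 read from the opposite strand, begins 546 bp from the start of Hspa1a. Hspa1l had a TES log2 fold change of -0.21.

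Hspa2 encodes an HSP70 best known from the testis, where it serves meiosis. Its TES window held 49.1, 46.6 and 50.2 CPM in knockout libraries, against 20.7, 26.5 and 16.6 CPM in WT libraries. The knockout libraries lay close together and far above every WT library. The TES log2 fold change was 1.23 ± 0.27 (SE), 2.35-fold, with an adjusted p of 0.00948. In the gene body it had 30.1, 50.3 and 46.1 CPM in knockout libraries, against 22.6, 15.0 and 36.6 CPM in WT libraries, and these groups overlapped (log2 fold change 0.76 ± 0.33 SE, adjusted p = 0.934). Its TSS window differed by -0.18 on the log2 scale. Hspa2 lies at chr12:76403812-76406938 and overlaps the annotated gene 4930426I24Rik, whose reads could not be told apart from its own where they overlap.

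Dnajb9 encodes ERdj4, an ER-resident DNAJ protein that brings the HSP70 of the ER to misfolded clients and to the stress sensor IRE1. Its TES window held 126, 130 and 107 CPM in knockout libraries, against 73.3, 63.7 and 55.5 CPM in WT libraries. Again the groups did not overlap. The TES log2 fold change was 0.92 ± 0.23 (SE), 1.89-fold, with an adjusted p of 0.0328. This was the least firm of the 4 calls: it was lost with the 3 tables scaled together (0.81, adjusted p = 0.116) and with any library but knockout 3 left out (0.81 to 1.02, adjusted p from 0.0639 to 0.168). In the TSS window Dnajb9 had 146, 65.4 and 59.6 CPM in knockout libraries and 126, 128 and 57.3 CPM in WT libraries. There the shallow libraries of both genotypes were the high ones, and the log2 fold change was -0.19.

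**Figure D1:**
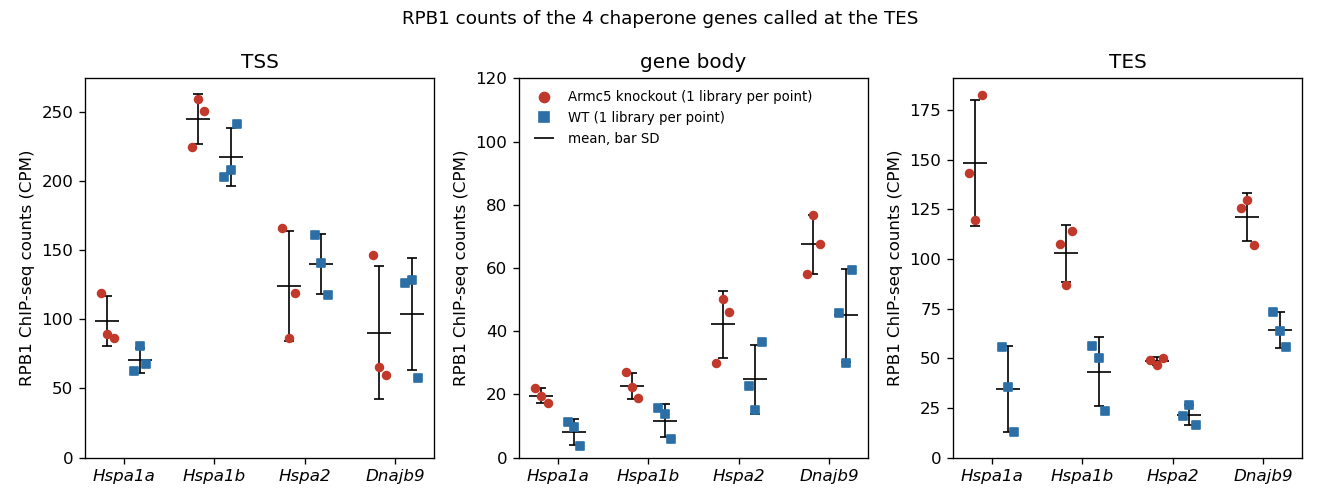
CPM (vertical axis) of Hspa1a, Hspa1b, Hspa2 and Dnajb9 in the TSS window, gene body and TES window (panels), 1 point per library, knockout left of WT, with mean ± SD bars. The 3 knockout points lie above the 3 WT points in the TES window for all 4 genes, for example 120 to 182 CPM against 12.7 to 55.6 CPM for Hspa1a, while the TSS points of Hspa1b, Hspa2 and Dnajb9 overlap between genotypes.

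None of the other 8 inducible cytosolic members was called; all 8 were above 0 in the gene body and 7 in the TES window, the exception being Hsph1. Hsp90aa1, the inducible cytosolic HSP90, had 190, 197 and 260 CPM in the TES window of knockout libraries, against 144, 78.4 and 141 CPM in WT libraries. Its groups were separate, with a log2 fold change of 0.82 ± 0.26 (SE) and an adjusted p of 0.178. Dnaja1, a DNAJ partner of cytosolic HSP70, had 130, 115 and 178 CPM in knockout libraries, against 85.2, 65.7 and 103 CPM in WT libraries, also without overlap (0.72 ± 0.24 SE, adjusted p = 0.235). Both genes were separate in the gene body as well, at 0.50 for Hsp90aa1 (adjusted p = 0.934) and 0.65 for Dnaja1 (adjusted p = 0.749). Hspb1, the small heat shock protein HSP27, had 18.1, 26.2 and 24.9 CPM in the gene body of knockout libraries, against 12.8, 6.88 and 15.8 CPM in WT libraries. That gene body difference was 0.95 ± 0.30 (SE) with an adjusted p of 0.583, and its TES difference was 0.48 (adjusted p = 0.691) with overlapping groups. Dnajb1, the main DNAJ partner of inducible HSP70, differed by 0.52 in the gene body and 0.35 in the TES window, both with overlapping groups. Hsph1, the HSP110 exchange factor of HSP70, differed by 0.22 in the gene body and -0.02 in the TES window, and Dnajb4 by 0.23 and 0.11. Hspb8, a small heat shock protein of chaperone-assisted autophagy, differed by 0.20 and 0.29, and Dnaja4 by 0.36 and 0.30.

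As a class, the inducible cytosolic genes had a median log2 fold change of 0.12 in the TSS window, 0.51 in the gene body and 0.42 in the TES window, beside -0.01, -0.02 and -0.02 over all genes. Of the 10 genes, 7 were above 0 in the TSS window, 10 in the gene body and 9 in the TES window. Without Hspa1a and Hspa1b the medians were 0.03, 0.43 and 0.32. Summed over the class, the TES windows held 1248, 1195 and 1393 CPM in knockout libraries, against 947, 626 and 907 CPM in WT libraries. Every knockout sum lay above every WT sum. In the gene body the sums were 929, 1048 and 948 CPM in knockout libraries and 771, 522 and 905 CPM in WT libraries. At the TSS they were 1201, 1177 and 1167 CPM in knockout libraries and 1122, 1005 and 1162 CPM in WT libraries, so the genotypes only just missed overlapping there. In these glands more cells of a type and more RPB1 per cell cannot be told apart.

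**Figure D2:**
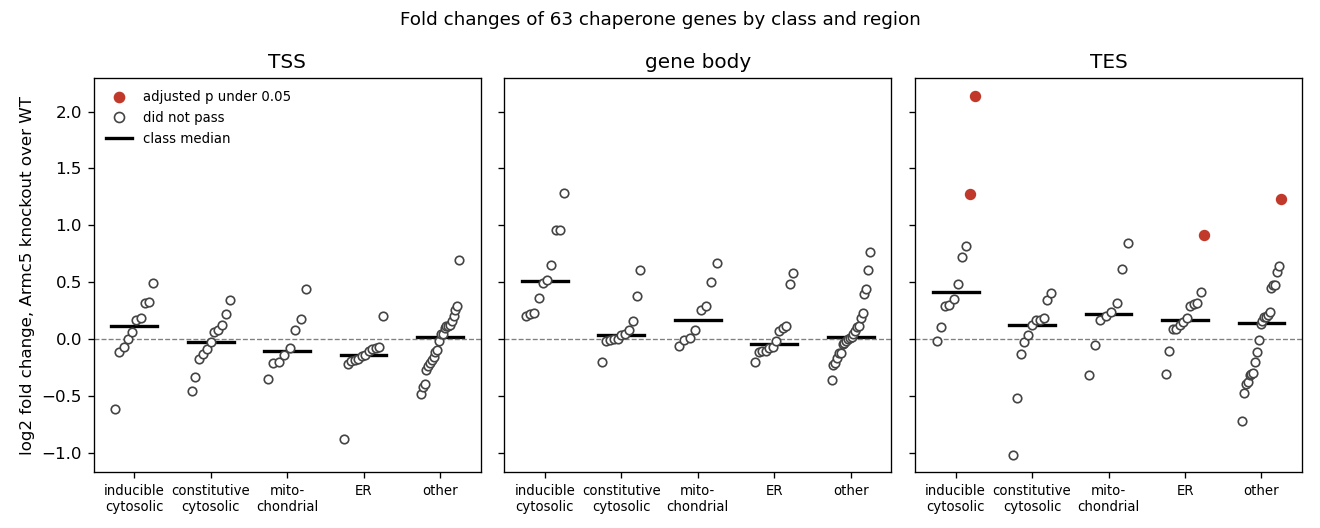
log2 fold change, knockout over WT, of each of the 63 members by chaperone class in the TSS window, gene body and TES window. Filled red points are called genes, black lines are class medians, and the inducible cytosolic class has the highest median in the gene body, 0.51, and in the TES window, 0.42.

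One WT library weighed on these medians. WT library 2, the shallowest, was the lowest of the 6 libraries for 34 of 63 members in the gene body, or 54.0%, where it was the lowest for 32.3% of all tested genes. At the TES it was the lowest for 25 members, or 39.7%, beside 26.4% of all genes, and in the TSS window for 14 members, or 22.2%, beside 20.5%. Without it the inducible median was 0.32 in the gene body, with 9 of 10 genes above 0, and 0.33 in the TES window, with 10 of 10. Without it the gene body median was 0.002 for the mitochondrial genes, -0.10 for the constitutive ones and -0.11 for the ER ones. WT library 2 was not the lowest for Hspa1a, Hspa1b, Hspa2 or Dnajb9 in the TES window, where WT library 3 was. Knockout library 3 also stood apart: it was the highest of the 6 for 7 of 10 inducible genes in the TES window. Over all genes it was the highest there for 12.2%. With knockout library 3 left out, 8 of 10 inducible genes were above 0 in the TES window.

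The constitutive cytosolic genes showed no call and medians near 0, at -0.02 in the TSS window, 0.03 in the gene body and 0.13 in the TES window. Hspa8, the constitutive HSP70 cognate, had the largest gene body difference of the class, with 164, 177 and 191 CPM in knockout libraries against 132, 73.3 and 145 CPM in WT libraries. Those groups were separate, but the log2 fold change of 0.60 ± 0.24 (SE) had an adjusted p of 0.921. In its TES window Hspa8 had 32.2, 19.6 and 33.0 CPM in knockout libraries and 26.6, 34.3 and 16.2 CPM in WT libraries, which overlapped (0.17). Hsp90ab1, the constitutive HSP90, had 215, 298 and 243 CPM in the TES window of knockout libraries and 231, 196 and 401 CPM in WT libraries, a log2 fold change of -0.14 that was 0.24 without WT library 3. Hspa4, an HSP110-type exchange factor, differed by 0.06, 0.03 and -0.03 across the TSS window, gene body and TES window. Hspa14, an HSP70 of the ribosome, had the lowest TES value of all members, -1.02 ± 0.53 (SE), on 2.29 to 19.2 CPM in knockout libraries and 17.6 to 38.4 CPM in WT libraries, with an adjusted p of 0.770.

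Among the mitochondrial genes none was called, and the medians were -0.11 in the TSS window, 0.17 in the gene body and 0.22 in the TES window. Dnajc15, a DNAJ protein of the import motor of the inner membrane, came closest, with 115, 143 and 71.8 CPM in the TES window of knockout libraries against 75.7, 64.7 and 44.2 CPM in WT libraries. The groups overlapped through knockout library 3, and the log2 fold change of 0.85 ± 0.25 (SE) had an adjusted p of 0.110. In the gene body its groups were separate, with 186, 189 and 178 CPM in knockout libraries against 112, 85.7 and 151 CPM in WT libraries (0.67 ± 0.20 SE, adjusted p = 0.535). Hspd1 and Hspe1 encode HSP60 and HSP10, which form the folding chamber of mitochondria, and are read in opposite directions from starts that overlap by 96 bp on chromosome 1. Whether their start windows shared reads was not measured here, and their TSS differences were 0.17 for Hspd1 and 0.07 for Hspe1. At the TES Hspe1 had 623, 460 and 550 CPM in knockout libraries and 497, 168 and 394 CPM in WT libraries. The difference of 0.62 ± 0.30 (SE, adjusted p = 0.711) was 0.28 without WT library 2, and Hspd1 differed by 0.31. Hspa9, the HSP70 of the mitochondrial matrix, differed by -0.14, 0.08 and 0.20 across the 3 regions, and its partner Dnaja3 by -0.20, 0.01 and 0.23.

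The ER genes other than Dnajb9 were not called. Of the 12 genes, 1 was above 0 in the TSS window, 5 in the gene body and 10 in the TES window, with medians of -0.15, -0.04 and 0.16, beside 48.4%, 46.3% and 47.8% of all genes above 0. The TSS count rested on the scaling and on 1 library: with the tables scaled jointly, which moved the TSS median of all genes to 0.24, 11 of 12 were above 0 with a median of 0.11, and without knockout library 3 it was 6 of 12 with a median of 0.01. Hspa5 encodes BiP, the HSP70 of the ER, and had 194, 201 and 219 CPM in the TES window of knockout libraries and 202, 133 and 203 CPM in WT libraries. That was a log2 fold change of 0.18 with overlapping groups, and in the gene body it was 0.48 (adjusted p = 0.934); Hspa5 overlaps the measured gene Rabepk. Hsp90b1, the ER form of HSP90, had 310, 235 and 255 CPM in the TES window of knockout libraries and 287, 147 and 207 CPM in WT libraries (0.31). Dnajb11 and Dnajc3, DNAJ partners of BiP, differed by 0.41 and 0.29 in the TES window, each with overlapping groups.

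**Figure D3:**
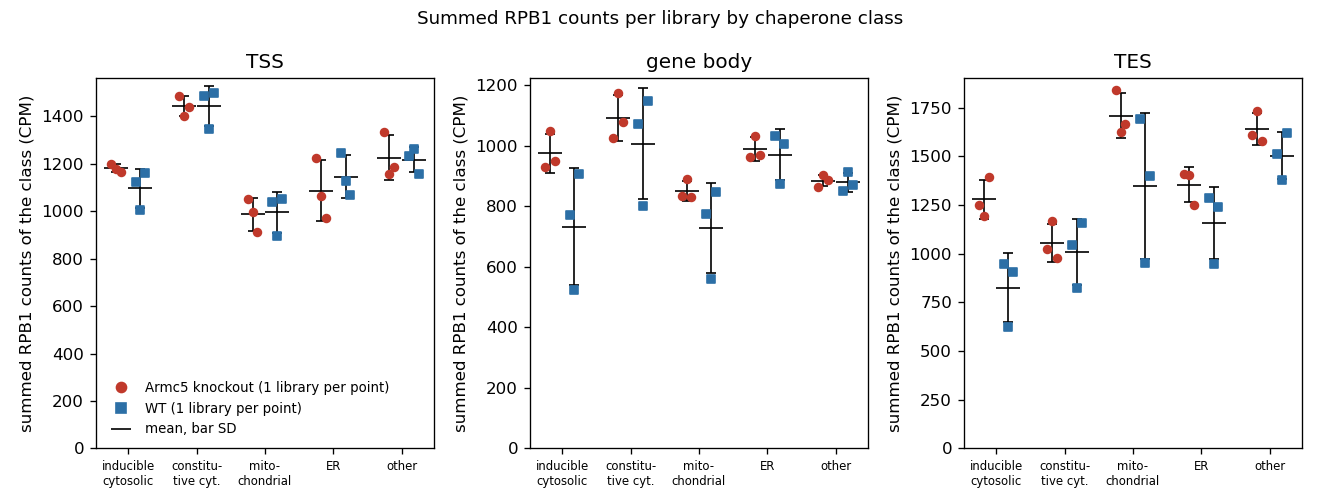
Summed CPM of each chaperone class per library in the TSS window, gene body and TES window, knockout left of WT. The inducible cytosolic sums are separate between genotypes in the gene body, 929 to 1048 CPM against 522 to 905 CPM, and in the TES window, 1195 to 1393 CPM against 626 to 947 CPM. WT library 2 gives the lowest TES sum of every class, the inducible one included (626 CPM), and the lowest inducible sum in the gene body (522 CPM).

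Among the 22 other members, Hspb6 stood out by its evenness across regions. Hspb6 is the small heat shock protein HSP20, abundant in muscle. It had 31.0, 34.5 and 37.3 CPM in the TSS window of knockout libraries, against 21.8, 22.8 and 19.5 CPM in WT libraries, and its groups were separate in all 3 regions. Its log2 fold changes were 0.70 in the TSS window (adjusted p = 0.654), 0.60 in the gene body (adjusted p = 0.437) and 0.59 in the TES window (adjusted p = 0.403), so none passed; it overlaps the measured gene Lin37. Dnajc9, which escorts histones as well as HSP70, had 49.0, 62.2 and 52.6 CPM in the TES window of knockout libraries against 40.2, 34.3 and 31.1 CPM in WT libraries, separate but not called (0.64, adjusted p = 0.326). Dnajc12, a co-chaperone of aromatic amino acid hydroxylases, differed by 0.44 in the gene body (adjusted p = 0.867). On the low side, Hspa12b, a distant HSP70 relative of endothelial cells, had 46.8, 53.5 and 38.9 CPM in the TES window of knockout libraries against 72.1, 74.5 and 83.1 CPM in WT libraries. Those groups were separate, with a log2 fold change of -0.73 ± 0.22 (SE) and an adjusted p of 0.139. The 4 measured endothelial markers were all below 0 in the gene body and TES window, with medians of -0.21 and -0.17 and 0 called. Their summed TES level was 213 to 224 CPM in knockout libraries and 215 to 305 CPM in WT libraries, and their part in the Hspa12b value was not tested.

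**Figure D4:**
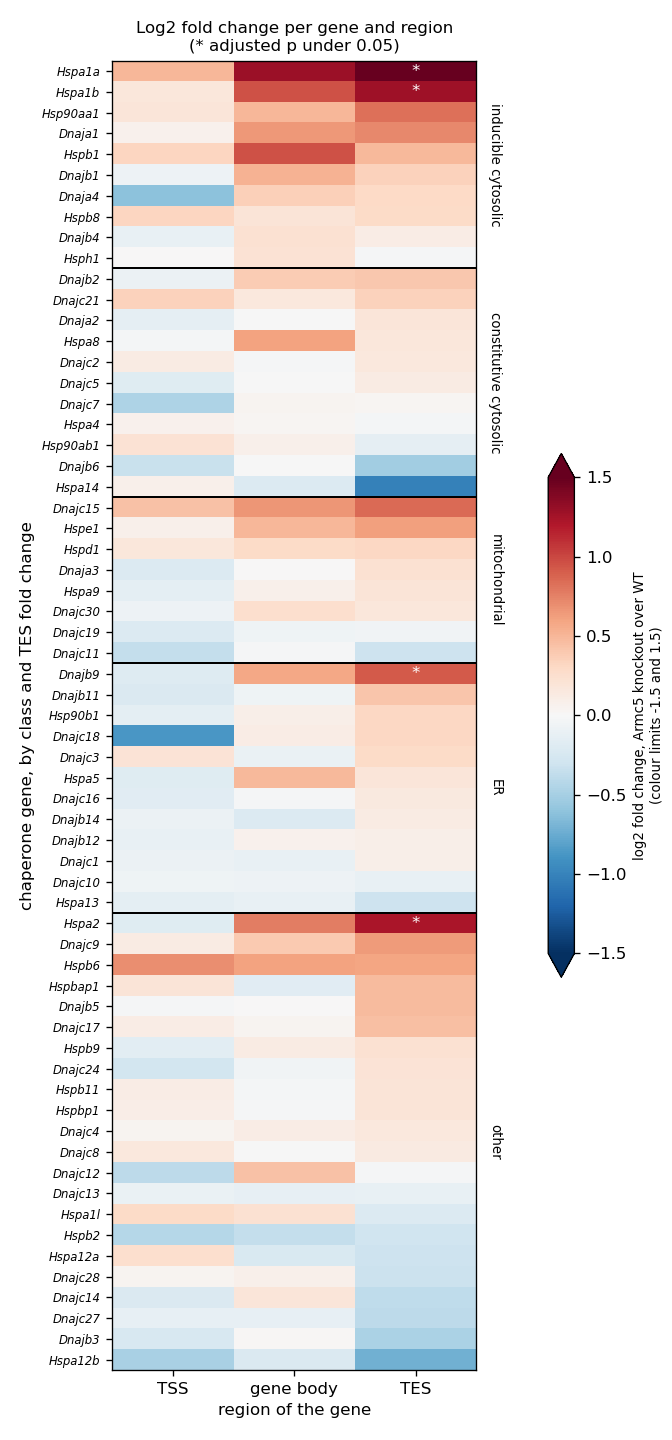
log2 fold change, knockout over WT, of the 63 members (rows, grouped by class) in the TSS window, gene body and TES window, with colour limits of -1.5 and 1.5 and a white star on called values. The 4 stars are in the TES column, at Hspa1a, Hspa1b, Hspa2 and Dnajb9.

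The place of the polymerase along the genes was then compared as the ratio of window counts to gene body counts within each library. For the TSS ratio 0 of 63 members were called, as were 0% of all 12679 genes, and limma on the log2 ratio also called 0; no member reached an unadjusted p under 0.05, where 3.64% of all genes did. For the TES ratio 0 members were called, against 0.0158% of all genes, and limma called 0; 5 members reached an unadjusted p under 0.05, 3 higher and 2 lower, where 5.7% of all genes did. Hspa1a had 0.570, 0.580 and 1.06 TES counts per gene body count in knockout libraries, against 0.468, 0.313 and 0.372 in WT libraries. The ratio was higher in every knockout library (log2 difference 0.86 ± 0.27 SE, adjusted p = 0.751). Its TSS ratio was 0.646, 0.724 and 0.679 in knockout libraries and 0.572, 0.678 and 2.71 in WT libraries, and that of Hspa1b was 0.993, 1.85 and 1.80 in knockout libraries and 1.33, 1.23 and 5.85 in WT libraries. WT library 3 alone stood apart in both, and its gene body level of the pair was the lowest of the 6.

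Across the members the gene body difference exceeded the TSS difference in 43 of 63, beside 51.2% of all genes, including 9 of 10 inducible and 8 of 8 mitochondrial genes. The median log2 difference in the TSS ratio was -0.62 over the inducible genes, -0.22 over the mitochondrial genes, -0.19 over all 63 members and -0.02 over all genes. The TES difference exceeded the gene body difference in 38 of 63 members, beside 47.9% of all genes. Length ran alongside: the 19 members shorter than 6 kb had a median log2 fold change of 0.50 in the gene body, beside 0.17 for all genes that short, and the other 44 had -0.002, beside -0.04. At the TES the short members had a median of 0.35, beside -0.001 for all short genes, and the long members had 0.14, beside -0.02.

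Per kb of annotated gene, the median member carried more polymerase than the median gene, but not every class did. The median gene body level was 3.08 CPM per kb in knockout libraries and 2.87 CPM per kb in WT libraries, beside 1.73 CPM per kb in both genotypes over 12384 genes with an annotated length. Hspa8 was the highest of the 63, at 45.2 ± 3.47 CPM per kb in knockout libraries and 29.7 ± 9.70 CPM per kb in WT libraries (SD, n = 3 each). Hspe1 followed with 29.9 ± 2.85 CPM per kb in knockout libraries and 21.1 ± 8.10 CPM per kb in WT libraries. Hsp90aa1 was next in WT glands, with 23.7 ± 2.6 CPM per kb in knockout libraries and 16.8 ± 4.36 CPM per kb in WT libraries. The WT spread of each of these 3 genes reached its neighbour in that order. By class the median level was 9.57 CPM per kb for the inducible genes in knockout glands and 6.22 CPM per kb in WT glands, whereas the constitutive genes had 3.89 CPM per kb in knockout glands and 3.91 CPM per kb in WT glands. In knockout and WT glands the mitochondrial genes had 6.34 and 6.16 CPM per kb and the ER genes 2.01 and 2.10 CPM per kb. The members outside these classes had 1.67 and 1.72 CPM per kb, no higher than all genes. The called genes were not the highest: Hspa1a had 7.0 CPM per kb in knockout glands and 2.89 CPM per kb in WT glands, and Dnajb9 16.2 CPM per kb in knockout glands and 10.8 CPM per kb in WT glands. Hsp90aa1 had few reads at its start, with 2.46 to 12.4 CPM in the TSS window of knockout libraries and 2.24 to 7.62 CPM in that of WT libraries. Per gene body count it had 0.0132, 0.00281 and 0.00452 TSS counts in knockout libraries and 0.00811, 0.00913 and 0.00288 in WT libraries. Dnaja4 was similar in the TSS window, at 4.76 to 6.85 CPM in knockout libraries and 5.12 to 12.4 CPM in WT libraries. The TSS differences of these 2 genes thus rest on few counts.

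Promoter sequences were then searched for the elements that mark these responses. RefSeq promoter windows, 250 bases before to 50 after the start, were given for 51 of the 63 members. Both strands were searched for the heat shock element in its 2-unit form (GAANNTTC or TTCNNGAA), which was added after the data were seen, and in its 3-unit form, which carries 1 more unit of GAA or TTC after NN. They were also searched for the ER stress element, CCAAT followed after 9 bases by CCACG. The 3-unit element was found in Dnajb6, Hspd1, Hspe1 and Hsph1, which is 7.84% of the members beside 0.662% of 27025 genes. The 2-unit form was found in 14 members, 27.5% beside 17.0% of genes, among them 8 of 9 inducible genes and 1 of 7 constitutive ones. The ER stress element was found in Dnajc3, Hsp90b1 and Hspa5, 5.88% of members beside 0.137% of genes, and in no member of another class. CCAAT boxes, whose letters overlap the ER stress element, were in 43.1% of members and 41.1% of genes, and TATAAA was in 5.88% and 15.7%. Hspb1 and Hsp90b1 are shown as examples of each kind. In Hspb1 the capitals mark 2-unit heat shock elements 117 to 110 and 97 to 90 bases upstream. In Hsp90b1 they mark ER stress elements 212 to 194 and 107 to 89 bases upstream, the second on the opposite strand, and further CCAAT boxes.
Hspb1 (chr5:135887669-135887918, plus strand): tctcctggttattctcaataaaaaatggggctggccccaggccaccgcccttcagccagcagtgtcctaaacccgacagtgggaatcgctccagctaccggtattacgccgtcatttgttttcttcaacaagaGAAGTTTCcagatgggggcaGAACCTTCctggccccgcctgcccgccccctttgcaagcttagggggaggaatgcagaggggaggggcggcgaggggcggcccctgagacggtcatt
Hsp90b1 (chr10:86705445-86705694, minus strand): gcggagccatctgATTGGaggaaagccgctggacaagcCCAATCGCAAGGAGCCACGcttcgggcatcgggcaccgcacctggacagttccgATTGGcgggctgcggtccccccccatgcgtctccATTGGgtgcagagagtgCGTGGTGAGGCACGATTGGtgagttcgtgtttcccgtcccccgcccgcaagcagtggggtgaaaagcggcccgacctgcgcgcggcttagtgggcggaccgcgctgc
The genes with these letters did not share a call. Of the inducible genes with the 2-unit form, Hspa1a and Hspa1b were called in the TES window and Dnaja1, Dnaja4, Dnajb4, Hspb1, Hspb8 and Hsph1 were not; none of the 3 genes with the ER stress element was called in any region, and Dnajb9, which was, held neither element in its window.

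Partners of these chaperones, from lists made for the cytosol (26 genes measured), the ER (19), the mitochondria (10) and the chaperonin TRiC with its helpers (13), gave 0 calls by edgeR in each of the 3 regions. Over all genes edgeR called 0.339% in the TSS window, 0.252% in the gene body and 0.915% in the TES window. The TES medians of the partners were 0.07 for the cytosol, 0.04 for the ER, 0.14 for the mitochondria and 0.05 for the chaperonin list. In the gene body the medians were 0.06, 0.18, 0.002 and 0.04 in the same order. There 14 of 19 ER partners were above 0, beside 46.3% of all genes. Hsf1, the heat shock factor, had 157 ± 23.4 CPM in the TSS window of knockout libraries and 166 ± 31.6 CPM in WT libraries (SD, n = 3 each), and log2 fold changes of -0.09, -0.10 and -0.19 across the TSS window, gene body and TES window. The largest gene body difference among the ER partners was that of Calr, the calcium-binding lectin chaperone calreticulin, with 73.7 ± 11 CPM in knockout libraries and 38.9 ± 6.76 CPM in WT libraries (SD, n = 3 each). It was 0.92 ± 0.18 (SE) on the log2 scale with an adjusted p of 0.129, and Calr was called by DESeq2 and with depth class as a covariate. Calr was chosen after its values were seen.

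Markers of adrenal cell types were read in the same libraries. The 6 medulla markers were all above 0 in the gene body and TES window, with medians of 0.81 and 0.63 and 0 called, and their summed TES level was 808 to 2264 CPM in knockout libraries and 477 to 1381 CPM in WT libraries. The 3 measured of 6 capsule fibroblast markers were below 0, and Mgp and Pdgfra were called lower in the TES window. Their summed TES level was 72.8 to 89.7 CPM in knockout libraries and 106 to 321 CPM in WT libraries. The 3 measured of 6 macrophage markers were all above 0 in the TES window, with a median of 0.41 and 0 called. Their summed TES level was separate between genotypes, at 550, 550 and 570 CPM in knockout libraries and 441, 365 and 482 CPM in WT libraries. The 8 cortex markers summed to 5830 to 7423 CPM in the TES window of knockout libraries and 3670 to 8822 CPM in WT libraries, with 0 called. Immediate early genes, which respond within minutes to many stimuli, had a TES median of 0.25 over 7 genes with 0 called, and their summed TES level was 2149 to 2817 CPM in knockout libraries and 1942 to 2918 CPM in WT libraries. The 3 measured muscle markers summed to 210 to 215 CPM in the TES window of knockout libraries and 203 to 262 CPM in WT libraries, and the 1 measured adipocyte marker, Fabp4, had 84.3 to 94.4 CPM in knockout libraries and 51.0 to 222 CPM in WT libraries, with 0 called. The part of these in the chaperone values was not tested. No measured marker was at 0 in any library.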

How the data were processed

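RPB1 chromatin immunoprecipitation and sequencing of adrenal glands from 3 Armc5(-/-) and 3 WT mice was analysed from tables of 12718 genes in the TSS window, gene body and TES window. The deposited values are raw counts per gene and library, and the deposited log2 CPM values were not used in tests. The submitters' processing notes name the build GRCm38/mm10 and, without their roles, BWA, Trimmomatic, bcl2fastq 2.20, MACS2, Picard, HOMER, limma and edgeR. Not given in the sources used here were window widths, read filters, strand and the use of input. Each whole table was fitted with edgeR 4.0.16 in R 4.3.3 (filterByExpr, minimum count 10 and minimum total 15; TMM; quasi-likelihood F test; Benjamini-Hochberg). Ratios of a window to the gene body were tested as the region by genotype term with the library as a block. DESeq2 1.42.0, limma 3.58.1, other scalings and filters, covariates, a replicate block and leaving out each library were the alternatives. The default edgeR, DESeq2 and limma-voom fits of each region, and the edgeR and limma fits of the ratios, were also run on simulated counts. Those counts had the same spread setting for every gene, and the other alternatives were not simulated. The replicate numbers are not stated to pair animals, so the main fit had no block for them. The genes, classes, partner and marker lists were chosen with earlier results of these data known. Named members were drawn from those called anywhere, a fixed set of 20 well-known chaperones and the 3 smallest p-values per region, ratio and direction. Further sources were the 3 highest gene body levels per kb in WT glands, called partners with Hsf1, and members within 1 kb of another gene. Not all of these are described. Dnajc11 and Dnajc18 (TSS window), Dnajb14 (gene body) and Dnajc14 (TES window) met the p-value rule on the lower side and are left out. So are Hspa12a and Dnajb5, on the higher side of the TSS and TES ratio, and some members within 1 kb of another gene. Other members are named as examples of their class and were chosen after their values were seen. Promoter sequences and gene positions came from RefSeq (GRCm38.p6). Precision is limited by counting at low members, whose counts go down to 5.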

Additional observations from a re-analysis of the deposited data

How the results depend on the processing

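Hspa1a, Hspa1b and Hspa2 were called in the TES window under every alternative run, with adjusted p of at most 0.000896, 0.0310 and 0.0480; with a library left out their log2 fold changes were 1.68 to 2.74, 0.94 to 1.55 and 1.06 to 1.38. Members called in the TES window numbered 3 with the 3 tables scaled jointly, 5 with the replicate block, the form of the mouse number or the depth class as a term, and 3 to 5 with a library left out; the fifth was Dnajc15, also without knockout library 3. Dnajb9 lost its call with joint scaling and with any library but knockout 3 left out. The depth class covariate called 2 members in the gene body (Hspa1a and Hspa1b), and with a depth class by region term 1 member was called in the TSS ratio (Hspa1b, -1.23, adjusted p = 0.0311). DESeq2 and the depth class covariate each called 1 ER partner in the gene body, Calr.

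Joint scaling moved the median of all genes to 0.24 in the TSS window, -0.12 in the gene body (-0.123) and -0.12 in the TES window (-0.117), and the class medians moved with it. They became 0.370 (inducible), 0.238 (constitutive), 0.142 (mitochondrial), 0.106 (ER) and 0.265 (other) in the TSS window, -0.065 (constitutive) and -0.144 (ER) in the gene body, and 0.024 (constitutive), 0.058 (ER) and 0.043 (other) in the TES window. Relative to all genes the inducible medians were 0.130, 0.544 and 0.436 with joint scaling, and 0.126, 0.528 and 0.431 with each table scaled alone. The depth class covariate gave a constitutive TES median of 0.001. With a library left out, the inducible medians ranged from -0.113 to 0.214 (TSS), 0.316 to 0.642 (gene body) and 0.334 to 0.594 (TES). The constitutive medians ranged from -0.100 to 0.101 (gene body) and -0.017 to 0.182 (TES). For the mitochondrial class they ranged from -0.135 to 0.014 (TSS), 0.002 to 0.271 (gene body) and 0.153 to 0.375 (TES). The ER medians ranged from -0.111 to -0.008 (gene body) and 0.057 to 0.278 (TES). Those of the others ranged from -0.072 to 0.051 (TSS) and 0.025 to 0.148 (TES).

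Uncalled members with differences near 0 changed sign. Joint scaling turned the TSS values of Dnaja3 (0.026), Dnajb1 (0.184), Dnajb11 (0.015), Dnajb4 (0.118), Dnajb9 (0.088), Hsp90b1 (0.120), Hspa5 (0.079), Hspa8 (0.238) and Hspa9 (0.122), and the gene body values of Dnaja3 (-0.092), Hsp90ab1 (-0.012), Hsp90b1 (-0.011), Hspa4 (-0.065) and Hspa9 (-0.020). The depth class covariate turned the TSS values of Dnajb1 (0.0021), Dnajb9 (0.167), Hspa8 (0.286) and Hspa9 (0.018), the gene body values of Dnaja3 (-0.045), Hsp90ab1 (-0.024) and Hspa4 (-0.025), and the TES value of Hsph1 (0.093). Hsph1 in the TSS window was -0.0013 with RLE scaling or a filter of 20 counts, -0.0053 with DESeq2, -0.043 with the replicate block and -0.0068 with the form of the mouse number. Dnaja3 in the gene body was -0.0047 with RLE scaling and -0.0051 with DESeq2. In the TES window limma-voom gave 0.045 for Hspa4 and 0.018 for Hsph1, and the replicate block gave 0.016 for Hspa4. The cause was not tested.

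With a library left out, the TSS values that turned ranged from -0.142 to 0.254 for Dnaja1, -0.387 to 0.121 for Dnaja3, -0.231 to 0.026 for Dnajb4, -0.697 to 0.032 for Dnajb9, -0.040 to 0.448 for Dnajc3, -0.648 to 0.615 for Hsp90aa1, -0.709 to 0.272 for Hspa8, -0.312 to 0.020 for Hspa9, -0.123 to 0.216 for Hspe1 and -0.398 to 0.285 for Hsph1. In the gene body they ranged from -0.059 to 0.109 for Dnaja3, -0.155 to 0.0007 for Dnajb11, -0.100 to 0.271 for Hsp90ab1, -0.118 to 0.371 for Hsp90b1, -0.138 to 0.144 for Hspa4 and -0.108 to 0.309 for Hspa9. In the TES window they ranged from -0.185 to 0.315 for Dnajb4, -0.333 to 0.239 for Hsp90ab1, -0.239 to 0.145 for Hspa4, -0.104 to 0.40 for Hspa8, -0.027 to 0.520 for Hspa9 and -0.177 to 0.107 for Hsph1.

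Each genotype's mean log2 CPM per gene was subtracted, and the remaining deviations were correlated between libraries with the same replicate number. The values were 0.441, -0.213 and 0.358 in the TSS window. They were 0.080, -0.582 and 0.270 in the gene body and 0.030, -0.308 and 0.214 in the TES window. These are not correlations of whole libraries. Deviations of each genotype sum to 0 per gene, so some knockout and WT pairs must come out negative. Not every library correlated best with its own number, but the values do not decide whether the numbers pair animals. The replicate block gave 0 members in the TSS window and gene body, 5 in the TES window and 0 in either ratio. With it the summed Hspa1a and Hspa1b had a TES log2 fold change of 1.80 (adjusted p = 1.22e-07). Depth limits the members with the fewest counts, Hsp90aa1 and Dnaja4 in the TSS window and Hspa14 in the TES window, where a difference within the spread was not detectable at this depth.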
